A study of Mus musculus with 9 samples.

Results

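The antioxidant and glutathione genes are the genes that remove superoxide, peroxides and reactive electrophiles, and that make, recycle and spend glutathione. They were chosen by name. A probe set belonged if its 1 platform gene symbol began with Gst, Gpx, Prdx, Txn, Hmox or Glrx, or with Sod followed by a digit, or if it was Cat, Nqo1, Gclc, Gclm, Gsr, Gss or Nfe2l2. This gave 50 genes of the 8251 genes with a symbol of their own on the array, and 65 of its 12422 probe sets apart from the manufacturer's controls. Where a gene had several probe sets, the one with the highest mean over the 9 arrays stands for it.

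The study set 2 antipsychotic drugs against each other and against no drug. Male C57BL mice, 4 weeks of age and housed singly, drank the atypical antipsychotic clozapine at 12 mg/kg/day, the typical antipsychotic haloperidol at 1.6 mg/kg/day, or water with no drug for 4 weeks, after 2 weeks of acclimatization. Of the 30 animals, 10 in each group, 3 per group supplied total RNA from 1 side of the forebrain, and each RNA went unpooled onto its own Affymetrix U74Av2 array. The title and source fields place the tissue in the right hemisphere and the tissue field in the left, and the 2 doses differ.

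Superoxide dismutases convert superoxide to hydrogen peroxide, which catalase, the glutathione peroxidases and the peroxiredoxins then reduce. Glutathione peroxidases take their electrons from glutathione and most peroxiredoxins from thioredoxin, and both carriers are restored by reductases that use NADPH. Glutathione transferases join glutathione to electrophiles. Many of these genes are targets of the transcription factor encoded by Nfe2l2 (Nrf2), which binds the antioxidant response element. In brain, astrocytes are known as the main site of glutathione export and of Nrf2 activity, and neurons depend on the precursors they release.

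The core of that element, TGACNNNGC read on either strand, was looked for in promoter windows from 250 bases before to 50 bases after each RefSeq transcription start (GRCm38.p6). It was present in 7 of the 42 antioxidant and glutathione genes that had a window (16.7%), and in 3781 of all 27025 genes (14.0%). Counted by window, 12.5% of the windows of these genes held it and 12.4% of all 32851 windows. The 7 genes were Gclm, Txnrd1, Gsta3, Gstm5, Nfe2l2, Sod1 and Txndc5. The 5 windows below are shown because they belong to textbook targets of Nrf2, to Nfe2l2 itself, or to transferases whose array values are described further on. Each runs 5′ to 3′ on the strand of its gene, with the match in capitals.

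Gclm, plus strand, chr3:122245407-122245447: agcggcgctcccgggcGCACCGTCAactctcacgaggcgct

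Txnrd1, plus strand, chr10:82859098-82859138: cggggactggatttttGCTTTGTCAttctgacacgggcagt

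Gstm5, plus strand, chr3:107895796-107895836: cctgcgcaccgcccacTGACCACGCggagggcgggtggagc

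Gsta3, plus strand, chr1:21240448-21240488: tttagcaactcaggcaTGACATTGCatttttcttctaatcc

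Nfe2l2, minus strand, chr2:75704879-75704913: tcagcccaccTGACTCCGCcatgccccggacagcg

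In Gclm and Txnrd1 the core reads on the opposite strand, so its complement is in capitals. The match lay 134 to 126 bases before the start in Gclm, 92 to 84 in Txnrd1, 42 to 34 in Gstm5, 121 to 113 in Gsta3 and 240 to 232 in Nfe2l2. A match is a description of the letters only.

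The array values are log2 values that the authors normalised with GCRMA, and array medians lay between 4.01 and 4.21. A probe set was tested if its 9-array mean exceeded the 40th percentile (3.45), which left 7453 probe sets, 40 of the 50 genes among them. The 10 genes below the filter were Gpx1, Gpx2, Gpx5, Gpx7, Gsta1, Gsta2, Gstm2, Gstt2, Hmox1 and Sod3. Their values lay between 0.88 and 3.46, and none moved by more than 0.24 over the 9 arrays, with a median range of 0.18 against 0.63 for the 40 genes past the filter. In that narrow band the third haloperidol array was the lowest for 10 of the 10 and the second clozapine array the highest for 8. How often other probe sets below the filter had this order was not counted. It was not confined to these genes. Cnp and Alb, cell type markers below the filter, had the same lowest and highest arrays, whereas others such as Kdr and Aif1 did not.

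Several arrays stood apart before any test of these genes. The pituitary genes Gh, Prl, Pomc, Cga and Tshb were high on the third haloperidol array alone. The summed signal of the 6 pituitary markers there was 13.43 on the log2 scale, against at most 5.18 on any other array. Of the 6 only Prl passed the filter, and Lhb was not high there (0.79, against 0.83 on the second clozapine array). The third control array had the widest difference between 3′ and 5′ ends of Actb and Gapdh messages, on average 1.73 log2 units against 0.81 to 1.46 on the other 8. Endothelial markers, with 5 of 6 past the filter and Kdr below it, had summed signals of 7.92 to 8.27 in clozapine mice and 8.02 to 8.26 in haloperidol mice, both below the 8.36 to 8.64 of control mice. No single endothelial marker separated both drug groups from the controls. Cldn5 read 6.32 on the third control array and 6.81 on the first clozapine array, and Cdh5 was lowest on a control array (5.16). Red blood cell markers, with Hba-a1 and Hbb-b2 past the filter of 3 on the array, spanned 9.93 to 10.83 with clozapine, 8.87 to 10.08 with haloperidol and 10.17 to 10.43 in controls. Neuronal, astrocytic, oligodendrocytic and microglial sums overlapped between all 3 groups. The part of these markers in the results below was not tested, and in bulk tissue fewer cells of a type and less RNA per cell cannot be told apart.

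No antioxidant or glutathione gene passed the test for a difference between treatments. With limma and Benjamini-Hochberg adjustment over all 7453 probe sets, the count at an adjusted p under 0.05 was 0 of 40 for clozapine against control, for haloperidol against control, for clozapine against haloperidol and for the F test over the 3 treatments, and the share of all probe sets called was likewise 0% in each. The lowest adjusted p among these genes was 1 for clozapine against control, 0.53 for haloperidol against control and 0.915 for clozapine against haloperidol. At an unadjusted p under 0.05, clozapine against control gave Txnip and Gsto1, 2 of 40 or 5%, where 0.939% of all probe sets did so. Haloperidol against control gave Hmox2, 1 of 40 or 2.5%, where 9.12% of all probe sets did so. Clozapine against haloperidol gave 0 of 40, where 3.64% of all probe sets did so. The F test gave 2 of 40, Hmox2 and Txnip, where 3.37% of all probe sets did so. These shares of all probe sets were not matched to the levels of these genes. A mean of 4.61 or less was held by 5 of the 40 genes and by 1864 of the 7453 probe sets. With a filter at the 60th percentile the shares in the 3 comparisons were 0.724%, 3.66% and 0.604%, in the order above.

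The differences between group means ran from -0.37 to 0.37 log2 units for clozapine minus control, from -0.54 to 0.58 for haloperidol minus control and from -0.35 to 0.36 for clozapine minus haloperidol. The 95% confidence interval stayed within 1 log2 unit of 0 for 35, 34 and 35 of the 40 genes in those 3 comparisons, and within 0.5 units for 22, 18 and 22. The width of the interval differed by gene. With 3 arrays on each side, the smallest two-sided p of an exact permutation test is 0.1.

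**Figure D1:**
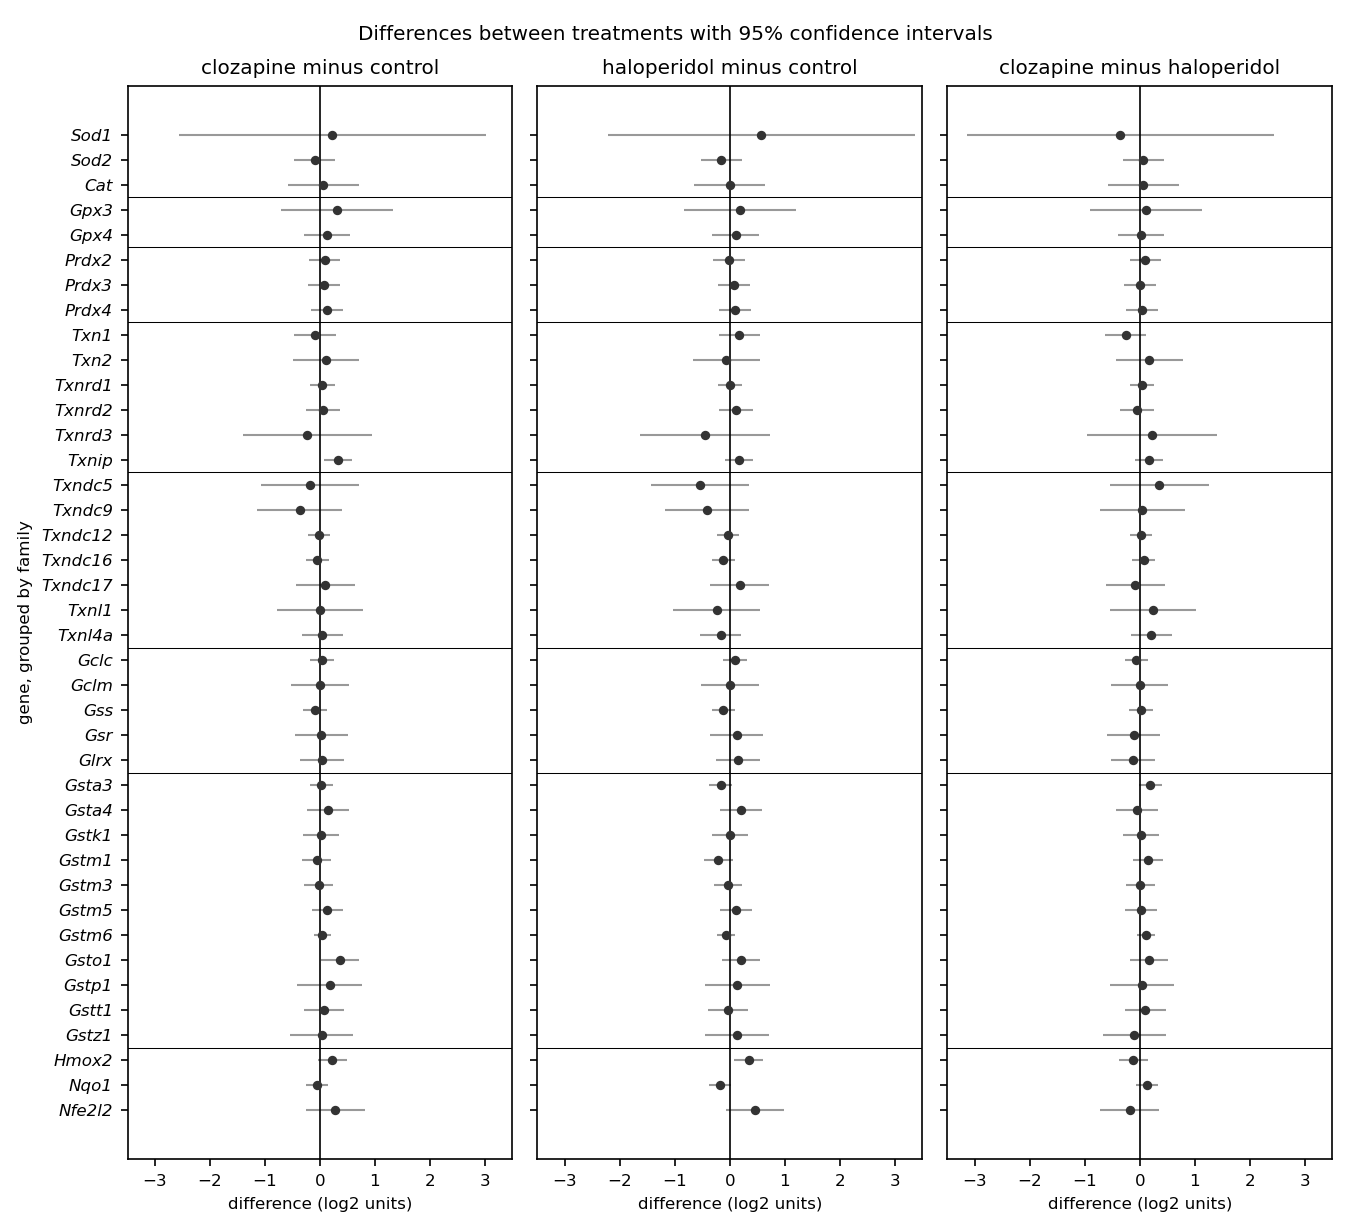
Difference in log2 value for each of the 40 genes past the filter (points) with its 95% confidence interval (lines), for clozapine and haloperidol each minus control and for clozapine minus haloperidol. Horizontal lines separate the families. Most intervals cross 0, and Sod1 has the widest, from -2.57 to 3.02 in clozapine minus control.

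Counting sides, 29 of the 40 genes (72.5%) lay above the controls with clozapine, against 49.5% of all 7453 probe sets. The median difference was 0.04, against 0.00 over all probe sets. With haloperidol 22 (55%) lay above, against 46.4% of all, and the median was 0.00, against -0.02. The 2 counts share the same 3 control arrays. Clozapine lay above haloperidol for 27 genes (67.5%, against 56.4% of all), with a median of 0.04, against 0.03 over all probe sets. The haloperidol side depends on the scaling of the arrays. With each array's median subtracted, all probe sets shift by 0.10 in haloperidol minus control, 29 genes lie above the controls, and only 14 of 40 lie higher with clozapine than with haloperidol (median -0.06). The same centring leaves clozapine minus control at 29 above, and quantile normalisation gives 25, 20 and 29 above in the 3 comparisons. The clozapine count depends on single arrays. It was 20 of 40 without the second control array and 21 of 40 without the third clozapine array.

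Group values that did not overlap were also counted, on the 1 probe set that stands for each gene. The shares of all probe sets beside these counts were not matched to the levels of these genes. Clozapine arrays all lay above the controls for 4 genes, Txnip, Gsto1, Hmox2 and Gstm5 (10%, against 1.27% of all probe sets), and all below for 0 (2.16% of all). Haloperidol arrays all lay above the controls for 1 gene, Hmox2 (2.5%, against 2.29%), and all below for 4, Nqo1, Gsta3, Gss and Gstm6 (10%, against 19.4%). Clozapine arrays all lay above haloperidol arrays for 6 genes, Gsta3, Gstm6, Nqo1, Txnip, Txnl4a and Txnrd1 (15%, against 15.2%), and all below for 1, Txn1 (2.5%, against 1.96%).

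**Figure D2:**
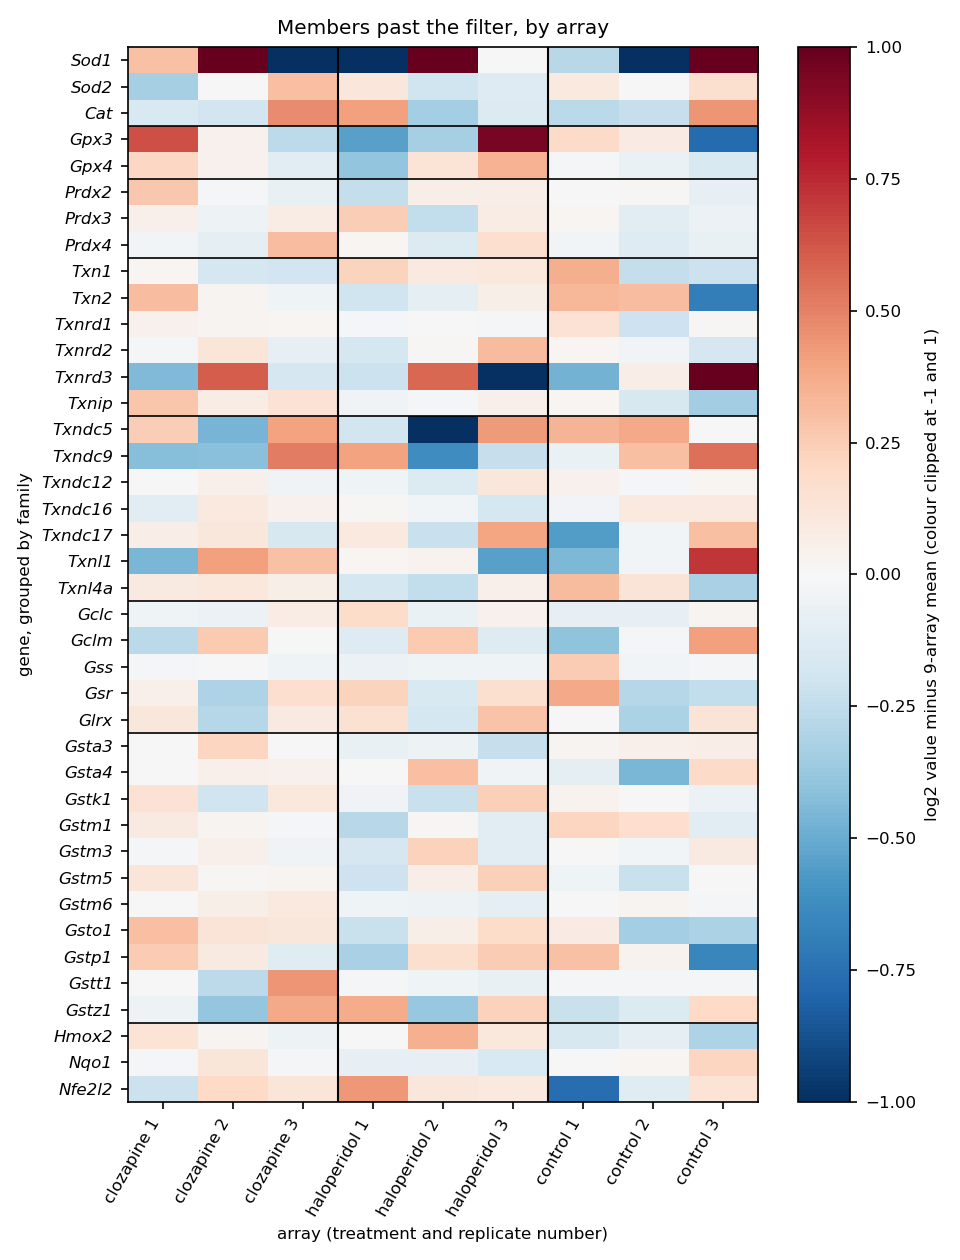
Log2 value of each of the 40 genes past the filter (rows, grouped by family) on each of the 9 arrays (columns, by treatment), with the gene's own 9-array mean subtracted; colour is clipped at -1 and 1. Sod1 runs from 7.48 to 11.65 over the 9 arrays, with a low and a high array in each treatment.

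Among the enzymes that meet superoxide and peroxide first, Sod1 had by far the widest spread. Sod1, the cytosolic copper-zinc superoxide dismutase, read 9.63, 10.77 and 7.48 in clozapine mice, 7.95, 11.65 and 9.35 in haloperidol mice, and 9.06, 7.48 and 10.67 in control mice. Each group thus held a low, a middle and a high array, and the groups overlapped almost completely. Its residual SD of 1.71 log2 units was exceeded by 9 of the 7453 probe sets tested. The differences were 0.22 ± 1.21 (SE) for clozapine minus control and 0.58 ± 1.21 for haloperidol minus control, so the intervals allow changes of more than 2 log2 units either way. Sod2, the mitochondrial manganese enzyme, averaged 7.08 ± 0.31 with clozapine, 7.01 ± 0.16 with haloperidol and 7.17 ± 0.08 in controls (SD, n = 3 each). Catalase (Cat), the peroxisomal peroxide remover, averaged 7.07 ± 0.37 with clozapine, 7.00 ± 0.39 with haloperidol and 7.00 ± 0.40 in controls. Of the 3 genes of this family tested, 2 lay above the controls with clozapine and 1 with haloperidol (2 after median centring).

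Glutathione peroxidases were represented by 2 of 6 genes past the filter. Gpx4, which reduces lipid hydroperoxides in membranes, averaged 9.42 ± 0.16 with clozapine, 9.40 ± 0.38 with haloperidol and 9.30 ± 0.07 in controls. Gpx3, the secreted plasma enzyme, read 5.75, 5.15 and 4.84 in clozapine mice, 4.56, 4.77 and 6.06 in haloperidol mice, and 5.29, 5.18 and 4.34 in controls. Its highest value was on the third haloperidol array and its lowest on the third control array, and all 3 groups overlapped. Both genes lay above the controls with both drugs, by 0.11 to 0.31, and also after median centring and after quantile normalisation, and neither passed the test.

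Peroxiredoxins showed narrower spreads. Prdx2, a cytosolic enzyme abundant in neurons, averaged 10.22 ± 0.18 with clozapine, 10.12 ± 0.18 with haloperidol and 10.14 ± 0.05 in controls. Prdx3, of mitochondria, averaged 7.43 ± 0.07 with clozapine, 7.43 ± 0.25 with haloperidol and 7.35 ± 0.06 in controls. Prdx4, of the endoplasmic reticulum, averaged 6.61 ± 0.22 with clozapine, 6.56 ± 0.15 with haloperidol and 6.47 ± 0.05 in controls. All 3 lay above the controls with clozapine, by 0.08 to 0.14, and 2 did with haloperidol (3 after median centring). A further Prdx2 probe set past the filter lay below the controls, by -0.08 with clozapine and -0.12 with haloperidol. The sides of these Prdx2 probe sets thus differed with clozapine, whereas with haloperidol both lay below the controls under the deposited scaling.

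The thioredoxin system held the gene with the lowest p against control. Txnip, which binds thioredoxin and holds back its activity, read 5.18, 4.98 and 5.05 in clozapine mice, 4.87, 4.88 and 4.95 in haloperidol mice, and 4.93, 4.74 and 4.55 in control mice. The clozapine arrays lay above both other groups with no overlap, and the haloperidol arrays overlapped the controls. Clozapine minus control was 0.33 ± 0.11, with a 95% confidence interval of 0.08 to 0.58, a fold of 1.26, an unadjusted p of 0.0172 and an adjusted p of 1 in limma. Without the third control array the difference was 0.24 (unadjusted p = 0.0582 in limma), and without the first it was 0.42. Clozapine minus haloperidol was 0.17 ± 0.11 (unadjusted p = 0.166, adjusted p = 0.952 in limma), 0.07 with median centring and 0.11 without the first clozapine array. This probe set is of a kind that can detect more than 1 transcript (suffix _s_at), and the only other Txnip probe set, with a mean of 1.37, was below the filter.

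Txn1, the cytosolic thioredoxin, read 9.88, 9.68 and 9.66 in clozapine mice, 10.07, 9.96 and 9.96 in haloperidol mice, and 10.22, 9.62 and 9.64 in control mice. Clozapine and haloperidol arrays did not overlap, while the first control array lay above them all. Clozapine minus haloperidol was -0.26 ± 0.16, with an unadjusted p of 0.153 and an adjusted p of 0.944 in limma. Txn2, the mitochondrial thioredoxin, averaged 7.02 ± 0.19 with clozapine, 6.84 ± 0.13 with haloperidol and 6.90 ± 0.58 in controls, where the third array stood at 6.23 and the other two at 7.25 and 7.23.

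The reductases differed in how steady they were. Txnrd1, which recharges Txn1, read 7.00, 6.99 and 6.97 in clozapine mice, 6.94, 6.96 and 6.93 in haloperidol mice, and 7.10, 6.75 and 6.96 in controls. Clozapine and haloperidol arrays did not overlap, yet they were only 0.04 ± 0.10 apart and both lay inside the range of the controls. Txnrd2, of mitochondria, averaged 4.13 ± 0.10 with clozapine, 4.17 ± 0.25 with haloperidol and 4.07 ± 0.10 in controls. Txnrd3, which joins a glutaredoxin domain to a thioredoxin reductase, read 7.44, 8.49 and 7.72 in clozapine mice, 7.68, 8.46 and 6.85 in haloperidol mice, and 7.42, 7.96 and 8.96 in controls. Its groups overlapped, with a haloperidol minus control difference of -0.45 ± 0.51. The Txnrd3 probe set has a special suffix (_r_at), and the only other one, with a mean of 3.03, was below the filter. In this family 4 of 6 genes lay above the controls with each drug, and median centring gave 4 with clozapine and 5 with haloperidol, quantile normalisation 4 and 3.

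Genes with a thioredoxin domain outside the core system lay mostly below the controls with haloperidol. Of 7 such genes, 6 did so with haloperidol (median -0.16; 5 after median centring and 6 after quantile normalisation) and 4 with clozapine (median -0.01). Txndc5, a protein disulfide isomerase of the endoplasmic reticulum, read 5.73, 5.03 and 5.89 in clozapine mice, 5.31, 4.35 and 5.92 in haloperidol mice, and 5.83, 5.87 and 5.50 in controls. The second haloperidol array was the lowest of the 9, the groups overlapped, and haloperidol minus control was -0.54 ± 0.39. Txndc9, which works with a cytosolic chaperonin, averaged 7.39 ± 0.54 with clozapine, 7.35 ± 0.52 with haloperidol and 7.76 ± 0.31 in controls. Txnl4a, a spliceosome protein with a thioredoxin fold, averaged 7.91 ± 0.03 with clozapine, 7.70 ± 0.15 with haloperidol and 7.87 ± 0.33 in controls. Txnl1, found with the proteasome, averaged 8.42 ± 0.47 with clozapine, 8.18 ± 0.33 with haloperidol and 8.42 ± 0.59 in controls. Txndc12, Txndc16 and Txndc17 differed from the controls by -0.12 to 0.18 with either drug.

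Glutathione synthesis and recycling stood within 0.15 log2 units of the controls with either drug. Gclc, the catalytic subunit of glutamate-cysteine ligase, which limits the rate of glutathione synthesis, ran from 5.99 to 6.12 in clozapine mice, from 5.97 to 6.23 in haloperidol mice and from 5.96 to 6.08 in controls. Gclm, its modifier subunit, averaged 7.62 ± 0.26 with clozapine, 7.62 ± 0.23 with haloperidol and 7.62 ± 0.41 in controls, and differed from control by 0.00 ± 0.23 with either drug. Gsr, which returns oxidised glutathione to its reduced form, averaged 6.42 ± 0.25 with clozapine, 6.52 ± 0.20 with haloperidol and 6.40 ± 0.37 in controls. Glrx, a glutaredoxin that removes glutathione from proteins, averaged 6.28 ± 0.22 with clozapine, 6.40 ± 0.24 with haloperidol and 6.25 ± 0.23 in controls.

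Gss, which adds glycine in the last step of synthesis, read 5.27, 5.29 and 5.24 in clozapine mice, 5.23, 5.25 and 5.24 in haloperidol mice, and 5.54, 5.26 and 5.26 in controls. The drug-treated arrays lay within 0.06 of each other, and the first control array alone stood higher. With clozapine 4 of the 5 genes of this family lay above the controls, and quantile normalisation left 1 above. With haloperidol 4 did, 4 after median centring and 3 after quantile normalisation. These counts turn on differences close to 0.

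Glutathione transferases were the largest family, with 11 of 15 genes past the filter. With clozapine 9 lay above the controls (median 0.04; 8 after quantile normalisation) and with haloperidol 6 (median 0.00; 9 after median centring). Gsto1, an omega-class transferase that also reduces dehydroascorbate, read 7.08, 6.92 and 6.90 in clozapine mice, 6.57, 6.85 and 6.97 in haloperidol mice, and 6.87, 6.45 and 6.47 in control mice. All clozapine arrays exceeded the controls, though the lowest clozapine array and the highest control array were only 0.03 apart, and haloperidol overlapped both groups. Clozapine minus control was 0.37 ± 0.15, with a 95% confidence interval of 0.03 to 0.72, a fold of 1.29, an unadjusted p of 0.0382 and an adjusted p of 1 in limma. It ranged from 0.30 without the second control array to 0.51 without the first.

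Mu-class transferases are encoded in a cluster of close paralogs, and array probes can bind more than 1 of them. Gstm5, a mu-class enzyme of brain and testis, read 10.02, 9.91 and 9.92 in clozapine mice, 9.69, 9.96 and 10.14 in haloperidol mice, and 9.86, 9.68 and 9.91 in control mice. The clozapine arrays lay above the controls without overlap but the margin was under 0.01, and the difference was 0.14 ± 0.12 (unadjusted p = 0.3, adjusted p = 1 in limma). Another Gstm5 probe set, whose suffix marks it as matching a family of sequences, gave -0.25 for clozapine minus control and -0.56 for haloperidol minus control. A further one of this kind past the filter, with a mean of 4.56, gave -0.05 and -0.16. Averaging the Gstm5 probe sets turned clozapine minus control to -0.04, and without the second control array it was 0.07. The probe sets of Gstm5 therefore disagree in sign.

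Gstm1, a major mu-class enzyme, read 8.71, 8.65 and 8.61 in clozapine mice, 8.35, 8.64 and 8.52 in haloperidol mice, and 8.84, 8.79 and 8.51 in control mice. The suffix of this probe set (_f_at) also marks it as matching a family of sequences. Haloperidol overlapped the controls only through the third control array. Haloperidol minus control was -0.21 ± 0.12 (unadjusted p = 0.107, adjusted p = 0.594 in limma), and -0.31 without that array (unadjusted p = 0.0224 in limma). It was -0.11 with median centring, -0.13 with the Gstm1 probe sets averaged and -0.13 without the first haloperidol array. Gstm6 read 4.09, 4.16 and 4.19 in clozapine mice, 4.05, 4.05 and 4.01 in haloperidol mice, and 4.10, 4.13 and 4.08 in controls. Clozapine minus haloperidol was 0.11 ± 0.07 (unadjusted p = 0.146, adjusted p = 0.932 in limma), but 0.0123 with median centring and 0.0077 with quantile normalisation. Gstm3 lay within 0.04 of the controls with either drug on its brighter probe set. On the other (suffix _r_at), also past the filter, it differed from them by -0.51 with clozapine and -0.52 with haloperidol. There every drug-treated array lay below every control array, with the second haloperidol array at 5.026 and the second control array at 5.031. The 2 probe sets of Gstm3 thus differ.

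Gsta3, an alpha-class transferase, read 3.60, 3.81 and 3.59 in clozapine mice, 3.52, 3.54 and 3.36 in haloperidol mice, and 3.62, 3.64 and 3.65 in control mice. The haloperidol arrays lay below both other groups without overlap, close to the filter value of 3.45. Clozapine minus haloperidol was 0.19 ± 0.09 (unadjusted p = 0.0662, adjusted p = 0.915 in limma), 0.14 without the third haloperidol array and 0.12 without the second clozapine array. It was 0.09 with median centring and 0.07 with quantile normalisation. Haloperidol minus control was -0.16 ± 0.09 (unadjusted p = 0.109, adjusted p = 0.598 in limma), -0.11 without that array, -0.06 with median centring and -0.04 with quantile normalisation. Among all tested probe sets with a mean value of 4.61 or less, the median of haloperidol minus control was -0.13 and that of clozapine minus haloperidol 0.12. The 5 antioxidant and glutathione genes at such levels had medians of -0.07 and 0.11 in the same comparisons.

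The other transferases showed no separation of groups. Gstp1, the pi-class enzyme, averaged 9.98 ± 0.19 with clozapine, 9.94 ± 0.31 with haloperidol and 9.80 ± 0.49 in controls, where the third array stood at 9.26. Gsta4, which clears 4-hydroxynonenal from lipid peroxidation, averaged 6.37 ± 0.03 with clozapine, 6.42 ± 0.18 with haloperidol and 6.22 ± 0.33 in controls. Gstz1, which also acts in tyrosine breakdown, averaged 7.06 ± 0.38 with clozapine, 7.15 ± 0.40 with haloperidol and 7.02 ± 0.22 in controls. Gstk1 of mitochondria and peroxisomes and the theta-class Gstt1 stood within 0.08 of the controls with either drug.

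Hmox2 was the gene with the lowest p against control under haloperidol. Hmox2, the heme oxygenase that brain makes constitutively, read 5.67, 5.55 and 5.48 in clozapine mice, 5.52, 5.88 and 5.63 in haloperidol mice, and 5.37, 5.43 and 5.21 in control mice. Every drug-treated array lay above every control array, and the 2 drug groups overlapped. The endothelial sums, though no single endothelial marker, also separated both drug groups from the controls, in the opposite direction. Red blood cell sums separated haloperidol, but not clozapine, from the controls, likewise in the opposite direction. The part of these sums in this result was not tested. Haloperidol minus control was 0.34 ± 0.12, with a 95% confidence interval of 0.08 to 0.61, a fold of 1.27, an unadjusted p of 0.018 and an adjusted p of 0.53 in limma. Clozapine minus control was 0.23 ± 0.12 (unadjusted p = 0.0847, adjusted p = 1 in limma). The haloperidol difference was 0.24 without the second haloperidol array, 0.28 without the third control array and 0.37 without the third haloperidol array. Hmox1, the inducible heme oxygenase, was among the genes below the filter.

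Nfe2l2 itself read 4.32, 4.73 and 4.66 in clozapine mice, 4.97, 4.65 and 4.63 in haloperidol mice, and 3.77, 4.42 and 4.67 in control mice. Both drug groups overlapped the controls, and the first control array stood far below the other 8. Haloperidol minus control was 0.46 ± 0.23 (unadjusted p = 0.0811, adjusted p = 0.556 in limma), 0.21 without the first control array and 0.65 without the third. With median centring it was 0.57 (unadjusted p = 0.0407, adjusted p = 0.651 in limma). Clozapine minus control was 0.28 ± 0.23 (unadjusted p = 0.259, adjusted p = 1 in limma), and it was 0.02 without the first control array and 0.47 without the third.

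Nqo1, a quinone reductase widely used as a readout of Nrf2, read 3.54, 3.67 and 3.53 in clozapine mice, 3.46, 3.47 and 3.39 in haloperidol mice, and 3.55, 3.57 and 3.76 in controls. The haloperidol arrays lay below both other groups without overlap, within the low range of levels described for Gsta3. Their mean of 3.44 was below the filter value of 3.45, so Nqo1 passed only through the other groups. Its probe set has a special suffix (_r_at), and the only other Nqo1 probe set, with a mean of 3.41, was below the filter. Haloperidol minus control was -0.18 ± 0.09 (unadjusted p = 0.0699, adjusted p = 0.542 in limma), -0.08 with median centring, -0.07 with quantile normalisation and -0.12 without the third control array. Clozapine minus haloperidol was 0.14 ± 0.09 (unadjusted p = 0.158, adjusted p = 0.946 in limma), 0.04 with median centring and 0.02 with quantile normalisation. Nfe2l2 and Nqo1 thus lay on opposite sides of the controls with haloperidol under the deposited scaling, and neither passed the test.

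**Figure D3:**
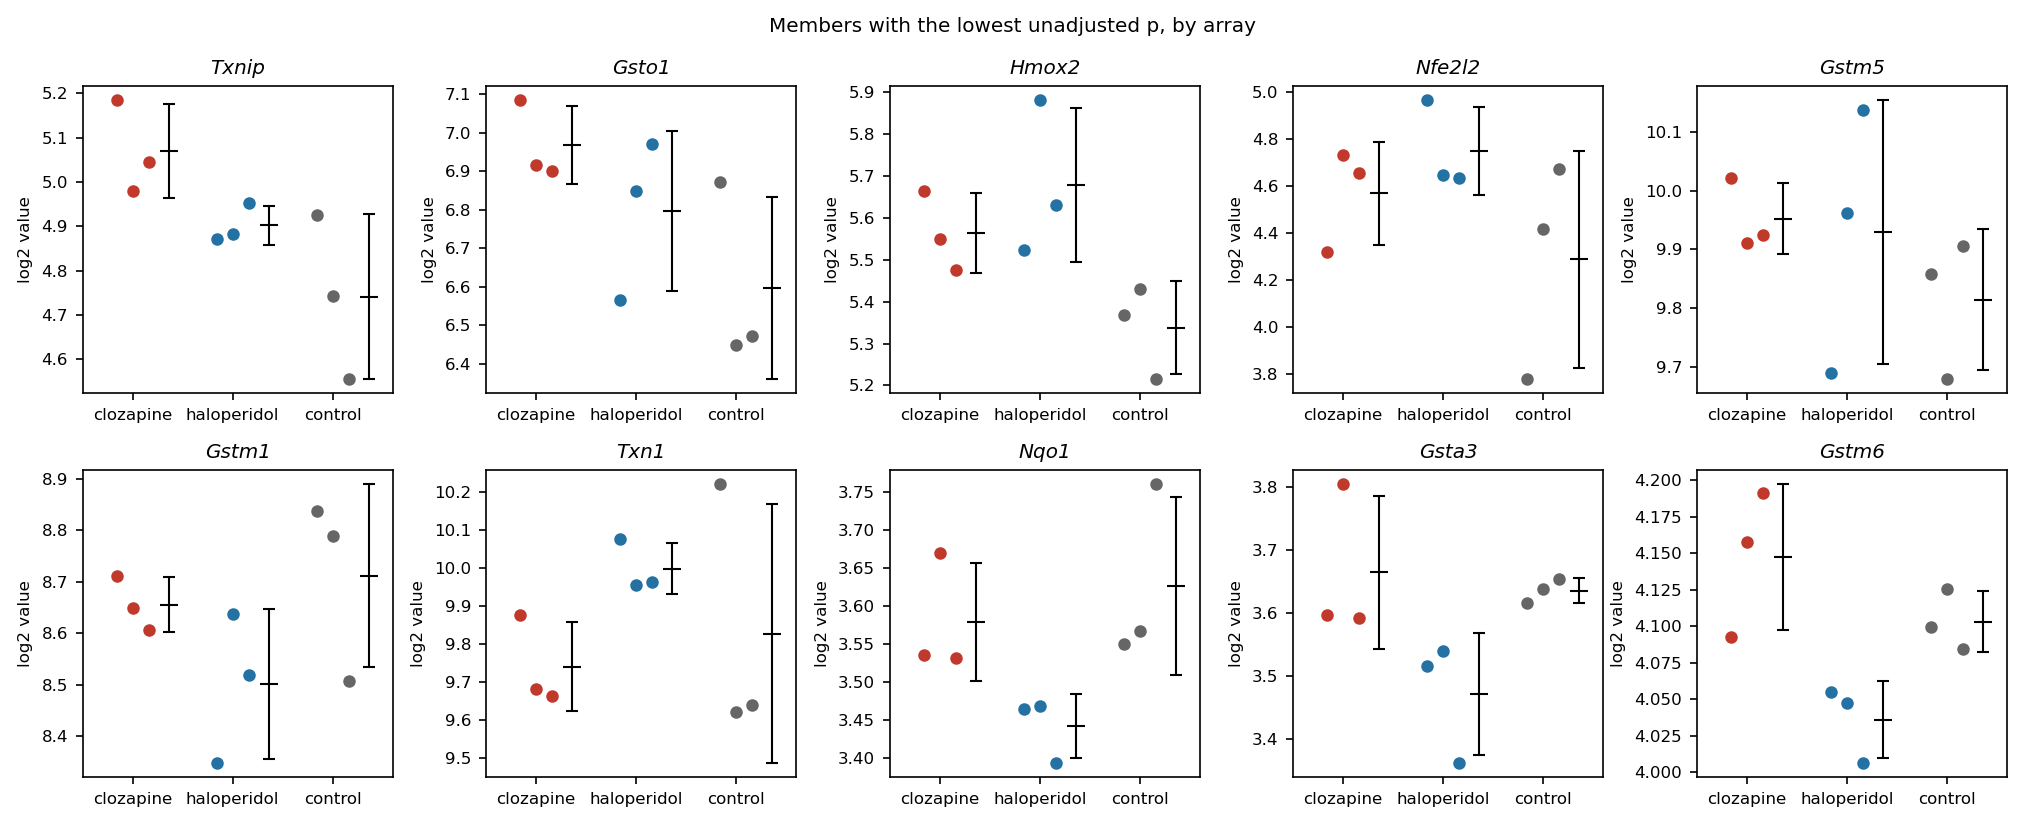
Log2 values of the 10 genes that were among the 5 with the lowest unadjusted p in at least 1 comparison, by treatment (clozapine, haloperidol, control); points are single arrays, and the horizontal tick and bar are the mean ± SD of 3 arrays. Vertical axes differ between panels and do not start at 0. Hmox2 values of both drug groups lie above all 3 control values, and Txnip values with clozapine above all others.

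Some of these genes varied across arrays in a way shared by the 3 treatments. The deviations of the arrays from their group means, taken over the tested probe sets outside the antioxidant and glutathione list, paired the arrays most closely in 3 sets of 1 array per treatment (mean correlation 0.444). The labels name no such sets, and the next arrangement, which swaps control arrays 2 and 3, was close behind (0.400). Set 1 held clozapine array 1, haloperidol array 3 and control array 1. Set 2 held clozapine array 2, haloperidol array 2 and control array 3. Set 3 held clozapine array 3, haloperidol array 1 and control array 2. Of the 40 genes, 16 (40%) were highest in the same set in every treatment, against 33% of all 7453 probe sets, and 10 (25%) were lowest in the same set, against 32.3%. With the set as a term of the model the residual SD was lower for 33 genes (82.5%, against 78% of all probe sets) and higher for 7. Those 7 were Hmox2 (0.16 with the term, 0.14 without), Cat (0.40, 0.39), Txndc17 (0.38, 0.32), Gstm1 (0.15, 0.14), Glrx (0.24, 0.23), and Gstz1 and Gclc, by less than 0.01.

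Sod1 is the clearest case. It averaged 9.35 in set 1, 11.03 in set 2 and 7.64 in set 3, and its residual SD was 1.71 without and 0.31 with the set as a term of the model. Within sets, clozapine minus control for Sod1 was 0.58, 0.10 and 0.00, and haloperidol minus control 0.29, 0.98 and 0.46. Txnrd3 also followed the sets, with its residual SD at 0.72 without and 0.18 with the set term. Gclm did so too, at 0.31 without and 0.12 with it. For Txnrd3, a gene picked out after its values were seen, haloperidol minus control was -0.56, -0.51 and -0.28 within the 3 sets. With the set as a block in limma its unadjusted p was 0.0127 and its adjusted p 0.268. The sets were found on these same arrays, so p-values with them are too small.

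Within sets 1, 2 and 3, Txnip and Gsto1 lay above the control in each. That was fixed in advance, because every clozapine array exceeded every control array for both genes. Only the sizes of the differences are informative here. Clozapine minus control was 0.26, 0.42 and 0.30 for Txnip and 0.21, 0.45 and 0.45 for Gsto1. Haloperidol minus control for Hmox2 was 0.26, 0.67 and 0.09, so the second set carried most of it. For Nfe2l2 it was 0.86, -0.03 and 0.55, with no difference in the second set.

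**Figure D4:**
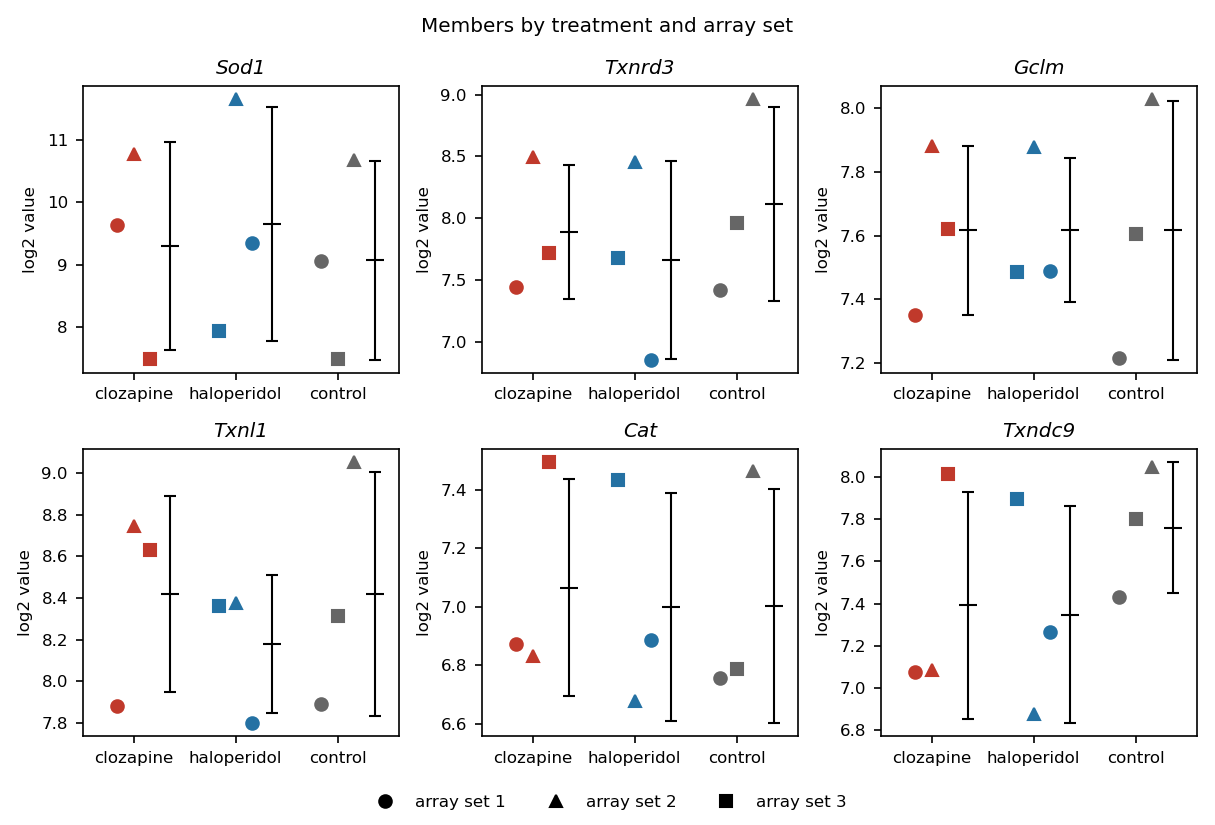
Log2 values of 6 genes by treatment (clozapine, haloperidol, control), with the symbol giving the array set; the horizontal tick and bar are the mean ± SD of 3 arrays. Vertical axes differ between panels and do not start at 0. In Sod1 the triangles of set 2 are highest and the squares of set 3 lowest in every treatment, whereas Cat has a different set highest among the controls than in the drug groups.

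Genes around the antioxidant and glutathione list were read from a further list of 65 genes for regulators, NADPH supply, cystine import, metal binding and repair. Of these, 47 had a symbol of their own on the array and 38 passed the filter. None passed an adjusted p under 0.05 in limma in any of the 3 comparisons. At an unadjusted p under 0.05 the counts were 0 of 38 for clozapine against control (0.939% of all probe sets), 4 for haloperidol against control (9.12% of all) and 1 for clozapine against haloperidol (3.64% of all). Above the controls lay 23 with clozapine (median 0.04), where 49.5% of all probe sets did, and 23 with haloperidol (median 0.02), where 46.4% did. Clozapine lay above haloperidol for 22, and for 56.4% of all probe sets.

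The 4 genes under haloperidol all lay below the controls. Slc7a11, the cystine importer that feeds glutathione synthesis, averaged 4.14 ± 0.21 with haloperidol and 4.49 ± 0.16 in controls (SD, n = 3 each). Mt2, a metal-binding metallothionein, averaged 9.60 ± 0.03 with haloperidol and 9.91 ± 0.21 in controls. Blvra, which turns the biliverdin made by heme oxygenases into bilirubin, averaged 6.36 ± 0.15 with haloperidol and 6.61 ± 0.04 in controls. Sephs1, related to the enzyme that makes selenophosphate, averaged 3.51 ± 0.13 with haloperidol and 3.73 ± 0.07 in controls. Slc7a11 and Sephs1 lay within the low range of levels described for Gsta3. The median of haloperidol minus control over all tested probe sets in that range was -0.13. The adjusted p was 0.53 in limma for each of the 4. For each of the 4 every haloperidol array lay below every control array, but genes picked for a low p tend to do so. The 19.4% of all probe sets with that order were not picked in this way, so the 2 shares cannot be compared. Of the 680 probe sets at an unadjusted p under 0.05 in limma for haloperidol against control, 527 lay below the controls. Red blood cell sums and endothelial sums separated the same 2 groups in the same direction, and their part in this result was not tested. Blvra was also the gene under clozapine against haloperidol, at 6.62 ± 0.13 with clozapine and 6.36 ± 0.15 with haloperidol, a difference of 0.26 ± 0.10 (unadjusted p = 0.0361, adjusted p = 0.915 in limma). The lowest p against control with clozapine belonged to Msrb1, a methionine sulfoxide reductase, at 0.29 ± 0.15 (unadjusted p = 0.0897), followed by Mgst2 at -0.43 ± 0.25 and Lancl1 at 0.23 ± 0.13, all with an adjusted p of 1 in limma.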

How the data were processed

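The authors' deposited table holds 1 log2 value per probe set and array, normalised with GCRMA per the submitters' processing notes; the GCRMA version and any genome build are not given in the sources used here. Probe sets were named through the platform annotation (10833 with 1 symbol, 396 with several, 1193 with none). After removal of 66 control probe sets and those at or below the 40th percentile of 9-array means, limma 3.58.1 in R 4.3.3 fitted 1 mean per treatment to all 9 arrays (6 residual degrees of freedom), with Benjamini-Hochberg adjustment over 7453 probe sets and a threshold of 0.05. The scripts were tested on simulated data. Text names any gene past the threshold, the 5 genes with the lowest unadjusted p in each comparison, the other genes of the list by role and, of the further list, the 3 lowest p; Txnrd3 and the remaining genes of the further list at an unadjusted p under 0.05 were named after their values were seen. The genes and lists were chosen with earlier results of these data known. Each array is a separate animal, so the number of arrays limits the precision. Replicate numbers did not pair the arrays: over 9 same-numbered pairs, correlations of deviations ran from -0.60 to 0.70, with 3 over 0.1. Alternatives covered filters, scaling, the prior, probe set choice, blocks and leaving out each array.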

Additional observations from a re-analysis of the deposited data

How the results depend on the processing

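The count of antioxidant and glutathione genes at an adjusted p under 0.05 stayed 0 in every comparison and in the F test under every alternative run, a threshold of 0.10 included. The small counts at an unadjusted p under 0.05 moved. Clozapine against control (2) gave 1 of 32 with a filter at the 60th percentile, where 0.724% of all probe sets did so. It gave 1 of 37 with probe sets of a gene averaged (0.999% of all) and 1 of 35 with special suffixes left out (0.815% of all). With single arrays left out it gave 0 to 2 of 40 (0.523% to 2.63% of all). It was 0 without the first clozapine array (0.872% of all) or the third control array (2.63% of all). Haloperidol against control (1) gave 2 of 50 with no filter, where 15.6% of all probe sets did so. It gave 3 of 40 with median centring (7.47% of all) and 2 of 40 with a trend and robust prior (12.2% of all). With single arrays left out it gave 0 to 5 of 40 (2.16% to 10.1% of all). It was 0 without the second haloperidol array (9.62% of all), 5 without the third control array (8.99% of all) and 4 without the first (9.94% of all). Clozapine against haloperidol (0) gave 4 of 50 with no filter (16.6% of all) and 1 of 40 with the trend and robust prior (7.85% of all). It gave 1 with only the 6 arrays compared, where the share of all probe sets was not counted. With single arrays left out it gave 0 to 1, where 0.496% to 5.97% of all probe sets did so. With the replicate number as a block the counts were 1 for clozapine against control, 1 for haloperidol against control and 0 for clozapine against haloperidol. The shares of all probe sets were 0.805%, 8.92% and 4.47%. The change was a loss of Gsto1 (unadjusted p = 0.0695 in limma), and no other call moved. With the array set as a block, an alternative added after seeing the data, the same 3 counts were 2, 5 and 1. The shares of all probe sets were then 2.72%, 15.8% and 8.31%.

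The median difference of clozapine minus control (0.04) ran from 0.007 to 0.0717 with single arrays left out, the lowest without the second control array. That of haloperidol minus control (0.00) was -0.0305 with no filter, 0.107 with median centring, 0.0772 without special suffixes and -0.0017 to 0.0374 with single arrays left out, the highest without the second haloperidol array. That of clozapine minus haloperidol was -0.0565 with median centring. Gstm5, clozapine minus control, was -0.0386 with its probe sets averaged. The cause of these shifts was not tested. Over all probe sets, the count at an unadjusted p under 0.05 was 680 for haloperidol against control. It was 1944 with no filter, 182 with the 60th percentile filter, 367 without special suffixes, 1177 with the array set as a block, 205 without the third haloperidol array and 161 without the second control array. For clozapine against haloperidol it was 271, and 2061 with no filter, 30 with the 60th percentile filter, 107 with quantile normalisation, 585 with the trend and robust prior, 119 without special suffixes and 619 with the array set as a block. Without single arrays it ran from 37 (second clozapine array) to 445 (second haloperidol array), with 48 without the third haloperidol array. For clozapine against control it was 70, and 106 with no filter, 36 with the 60th percentile filter, 203 with the array set as a block, and 39 (without the second clozapine array) to 196 (without the third control array) with single arrays left out.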
